A study of Mus musculus with 86 samples.

Results

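The genes described here are 37 interferon-stimulated genes of the mouse, measured by RNA sequencing in injured and sham-operated kidney, liver and lung. They were taken by name: 27 are known mainly as targets of type I interferon and 10 mainly as targets of interferon gamma. All 37 were found among the 38277 genes of the FPKM tables (fragments scaled by transcript length and library size) of an inhibitor experiment. In the count files of a knockout experiment 36 of 37 were found among 31054 genes, and Mx2 had no entry there. The division into lists is one of emphasis, since many of these genes answer to both kinds of interferon.

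Type I interferons are released when a cell senses foreign or misplaced nucleic acid, and they act on neighbouring cells through the receptor chains Ifnar1 and Ifnar2. The signal passes through the kinases Jak1 and Tyk2 to a complex that holds Stat2 and Irf9 and binds an interferon-stimulated response element (ISRE) in the promoters of antiviral genes. Interferon gamma, made mostly by T and NK cells, signals through Ifngr1 and Ifngr2 to a gamma-activated site (GAS) in its target promoters. Its targets include the guanylate-binding proteins, the immunity-related GTPases and the genes for antigen processing. Both resident cells and infiltrating macrophages of an injured kidney or liver can make them. MERTK, the target of the study, is a receptor tyrosine kinase with which macrophages recognise and engulf dying cells, and in macrophages it is known to restrain inflammatory signalling.

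Mice with a Mertk knockout label or a wild-type (WT) label underwent unilateral ureteral obstruction (UUO, tying a ureter so that the kidney scars), bile duct ligation (BDL, closing the bile duct so that scar tissue grows round its branches) or sham surgery. Each of the 8 groups of that experiment (UUO KO, UUO WT, BDL KO, BDL WT and a sham group for each) had 4 samples. In the inhibitor experiment all mice were labelled wild type, and the groups were UUO with UNC569, a small-molecule inhibitor of the MERTK kinase (8 samples, 7 columns), UUO with DMSO, its vehicle (4), BDL with UNC569 (6 samples, 4 columns), BDL with DMSO (6), bleomycin with UNC569 (6), bleomycin with DMSO (6), and, for each tissue, sham with UNC569 (3) and sham with DMSO (3). Bleomycin is a drug that scars the lung. The strain, age, dose, time after injury and the deleted part of Mertk are not given in the sources used here, and the labels call the samples biological replicates without tying them to animals.

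The libraries of the count files held 7.22 to 28.5 M reads in genes in kidney and 14.5 to 23.4 M reads in liver, and the depth of the FPKM tables is not known. The Mertk ranges of the labels overlapped in both kidney groups and in sham liver, and in ligated liver all 4 KO-labelled libraries lay below all 4 WT-labelled ones. In kidney Mertk stood at 39.4 to 57.1 CPM (read counts scaled to library size) in KO-labelled UUO libraries against 49.5 to 61.6 CPM in WT-labelled ones, and at 63.2 to 89.4 CPM in KO-labelled sham libraries against 55.1 to 86.3 CPM in WT-labelled ones. In liver it stood at 6.90 to 18.9 CPM in KO-labelled BDL libraries against 21.3 to 28 CPM in WT-labelled ones (a log2 fold change of -0.97, adjusted p = 0.061 by edgeR), and at 10.8 to 20.6 CPM in KO-labelled sham libraries against 10.5 to 18.2 CPM in WT-labelled ones. A whole-gene count does not check an allele that still makes RNA, so groups are named below by their labels. The kidney libraries UUO WT 1 and sham WT 1 were left out of the values below. In sham WT 1 the summed level of 7 hepatocyte genes was 255560 CPM, against 2147 to 2495 CPM in the other sham WT kidneys, and in UUO WT 1 the summed level of 7 proximal tubule genes was 58.3 CPM, against 1955 to 3639 CPM in the other UUO WT kidneys. The markers of the labelled tissue were otherwise present, with proximal tubule sums of 23998 to 55448 CPM in sham kidney and hepatocyte sums of 92548 to 114335 CPM in sham liver.

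Many of the members' promoters hold the letters of an ISRE or a GAS, and others hold neither. RefSeq promoter windows of build GRCm38.p6, which reach from upstream of the transcript start to just past it, were matched for 29 of the 37 members. An ISRE core, GAAANNGAA on either strand, stood in a window of 13 of 20 type I members (65%) and of 5 of 9 gamma members (55.6%), against 2638 of 27025 genes of the whole table (9.76%), each gene counted once over its windows. A GAS, TTCNNNGAA, stood in a window of 4 of 20 type I members (20%) and of 4 of 9 gamma members (44.4%), against 9.55% of all genes. Neighbouring ISRE cores in Ifit1, Isg15 and Bst2 overlap each other, as do the GAS and the first ISRE core of Bst2, so that a run of capitals can hold several matches. The promoters below are shown because the results turn on these genes and because they hold an ISRE row (Ifit1 and Isg15), a GAS alone (Irf1), an ISRE core alone (Gbp2) or both elements (Bst2 and Igtp). They lie at chr19:34640639-34640938 on the plus strand (Ifit1), chr4:156200769-156201068 on the minus strand (Isg15), chr8:71537423-71537722 on the minus strand (Bst2), chr11:53769764-53770063 on the plus strand (Irf1), chr3:142620413-142620712 on the plus strand (Gbp2) and chr11:58199306-58199605 on the plus strand (Igtp), and capitals mark the matched elements.
Ifit1: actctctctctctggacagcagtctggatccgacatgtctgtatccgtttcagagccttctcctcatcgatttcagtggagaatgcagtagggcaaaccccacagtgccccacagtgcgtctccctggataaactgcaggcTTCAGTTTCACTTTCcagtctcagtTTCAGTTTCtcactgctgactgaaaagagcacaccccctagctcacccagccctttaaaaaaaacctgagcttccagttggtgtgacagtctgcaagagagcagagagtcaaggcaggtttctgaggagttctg
Isg15: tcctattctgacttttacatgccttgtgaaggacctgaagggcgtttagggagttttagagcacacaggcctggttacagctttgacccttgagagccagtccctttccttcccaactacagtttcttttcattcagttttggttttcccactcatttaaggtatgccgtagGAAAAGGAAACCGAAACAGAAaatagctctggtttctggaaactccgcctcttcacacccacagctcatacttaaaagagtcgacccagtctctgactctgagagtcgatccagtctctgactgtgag
Bst2: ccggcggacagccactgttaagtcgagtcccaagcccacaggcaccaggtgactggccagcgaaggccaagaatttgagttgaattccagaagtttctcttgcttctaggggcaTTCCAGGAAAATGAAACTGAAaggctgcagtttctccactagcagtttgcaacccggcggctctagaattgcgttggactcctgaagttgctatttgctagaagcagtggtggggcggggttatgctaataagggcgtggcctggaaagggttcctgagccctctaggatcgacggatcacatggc
Irf1: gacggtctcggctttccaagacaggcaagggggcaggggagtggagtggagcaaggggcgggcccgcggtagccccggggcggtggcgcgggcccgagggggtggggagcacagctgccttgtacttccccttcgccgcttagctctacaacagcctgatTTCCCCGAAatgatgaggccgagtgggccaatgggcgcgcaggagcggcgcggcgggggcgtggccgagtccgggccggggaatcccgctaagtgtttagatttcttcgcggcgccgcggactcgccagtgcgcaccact
Gbp2: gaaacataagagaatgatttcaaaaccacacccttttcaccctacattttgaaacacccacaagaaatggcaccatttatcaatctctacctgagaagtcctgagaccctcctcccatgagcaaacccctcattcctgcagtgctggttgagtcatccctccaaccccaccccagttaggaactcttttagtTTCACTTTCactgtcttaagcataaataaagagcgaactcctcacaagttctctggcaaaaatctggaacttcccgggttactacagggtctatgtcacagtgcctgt
Igtp: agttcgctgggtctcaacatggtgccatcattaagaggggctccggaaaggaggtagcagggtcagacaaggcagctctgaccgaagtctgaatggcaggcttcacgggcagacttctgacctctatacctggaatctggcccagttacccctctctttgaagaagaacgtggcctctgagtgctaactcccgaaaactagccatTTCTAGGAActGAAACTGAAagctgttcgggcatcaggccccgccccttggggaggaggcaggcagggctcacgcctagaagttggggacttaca

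A match in these windows is a description of the letters, and binding was not measured.

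The members' levels differed by tissue, each FPKM table having been scaled separately. In sham kidney with DMSO the highest means were those of Bst2, a tethering protein that holds budding virus at the cell surface (27 FPKM), Isg15, a ubiquitin-like modifier (25.4 FPKM), and Ifit3, which binds foreign RNA together with Ifit1 (25.3 FPKM). Oas3, an enzyme that makes the messenger that switches on RNase L, had the lowest mean there, 0.225 FPKM. In sham liver with DMSO the gamma-type GTPase Iigp1, which attacks the vacuoles of intracellular parasites, led with a mean of 283 FPKM, followed by Bst2 with 208 FPKM and the GTPase Irgm1 with 66.8 FPKM. In sham lung with DMSO the order was Bst2 (89.7 FPKM), Ifit3 (63.6 FPKM) and the transcription factor Irf1 (62.7 FPKM).

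**Figure D1:**
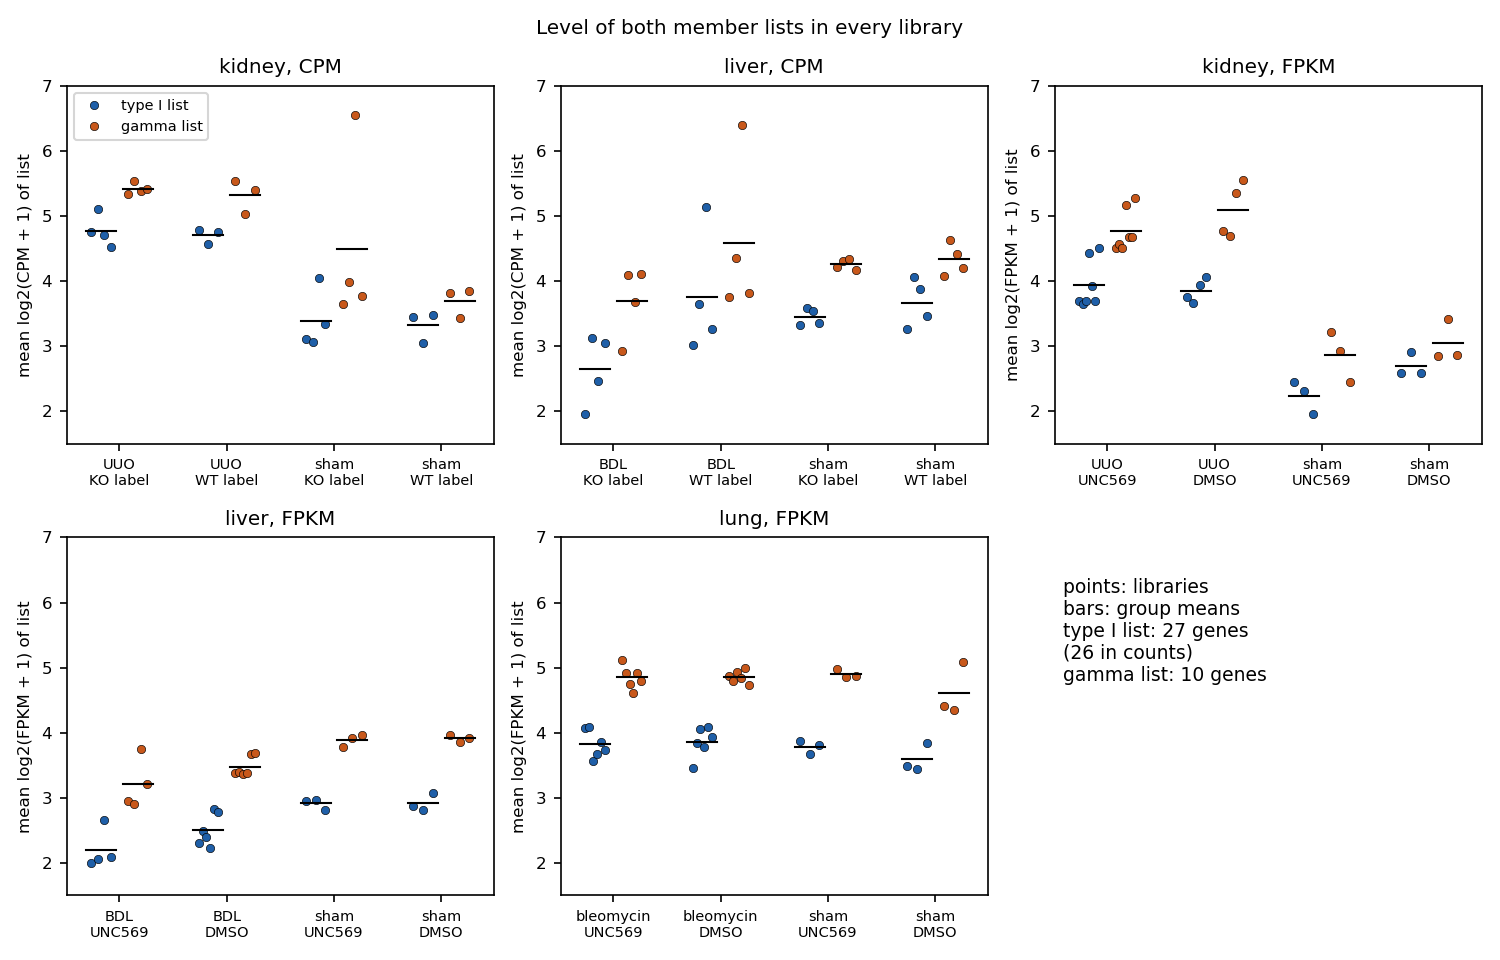
Mean log2(CPM + 1) or log2(FPKM + 1) over the type I list and over the gamma list in every library (points) with the group mean (bars), 1 panel for each tissue and experiment. Both lists stand higher in UUO than in sham kidney apart from the library sham KO 3, whose gamma level is 6.55, and in ligated liver the library BDL WT 3 stands above the rest of its group.

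Ureteral obstruction was accompanied by higher levels of most members in every arm. Between UUO and sham kidney, 20 of 26 type I and 3 of 10 gamma members rose in KO-labelled mice and 19 of 26 type I and 7 of 10 gamma members rose in WT-labelled mice (edgeR's quasi-likelihood test, Benjamini-Hochberg adjusted p under 0.05 over 16395 genes). In the inhibitor experiment 27 of 27 type I and 9 of 10 gamma members rose with UNC569, and 23 of 27 and 10 of 10 rose with DMSO (limma on log2(FPKM + 1), over 15338 genes). These counts stand against a background of 34.7% of all genes tested higher and 24.4% lower in KO-labelled mice (59.1% in all), 23.3% higher and 16% lower in WT-labelled mice (39.3%), 27.5% higher and 34.5% lower with UNC569 (62.1%), and 29.7% higher and 25.8% lower with DMSO (55.5%). The median log2 fold change of the type I list was 1.77 in KO-labelled mice, 1.77 in WT-labelled mice, 1.55 with UNC569 and 1.26 with DMSO, beside medians over all genes of 0.23, 0.16, -0.07 and 0.08. The median of the gamma list was 0.75 in KO-labelled mice, 2.09 in WT-labelled mice, 2.29 with UNC569 and 2.15 with DMSO.

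The same 14 type I members were called higher in all 4 UUO comparisons: Ddx58, Dhx58, Ifit2, Irf9, Mx1, Oas2, Oas3, Oasl2, Parp14, Rtp4, Stat2, Trim30a, Usp18 and Xaf1. They span the RNA sensors (Ddx58 and Dhx58), the signalling complex itself (Stat2 and Irf9), effectors against viral RNA and capsids (the Oas genes, Ifit2 and Mx1) and Usp18, the protease that removes Isg15 and damps the receptor. Of the gamma list Gbp2, Gbp3 and Gbp7, which are guanylate-binding proteins that attack pathogen vacuoles, were called higher in all 4. The share of all genes called higher in all 4 is not given here, so these counts cannot be set against it. The UNC569 and DMSO arms use different sham libraries, as do the KO-labelled and WT-labelled arms, so that the 4 comparisons share no library, although the arms of an experiment share the estimate of spread.

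Oas2, which makes the messenger of RNase L, is one of the 14. It had 24.7, 37.2, 23.4 and 20.4 CPM in KO-labelled UUO kidneys, against 3.35, 2.40, 5.25 and 2.98 CPM in KO-labelled sham kidneys. It had 24.4, 23.2 and 32.2 CPM in WT-labelled UUO kidneys, against 1.39, 5.56 and 4.69 CPM in WT-labelled sham kidneys. No sham library reached any UUO library under either label, and the log2 fold change was 3.15 ± 0.38 (SE, adjusted p = 1.12e-05) in KO-labelled mice and 2.95 ± 0.44 (adjusted p = 0.000166) in WT-labelled mice.

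Oas3, Mx1, Oasl2 and Oas1a of the OAS and MX families also rose under both labels. Oas3 rose by 3.38 ± 0.76 on the log2 scale in KO-labelled mice and by 3.73 ± 0.95 in WT-labelled mice (adjusted p = 0.0017 and 0.00692 by edgeR). Mx1, a dynamin-like GTPase that blocks influenza virus in the nucleus, rose by 3.09 ± 0.45 in KO-labelled and 2.60 ± 0.54 in WT-labelled mice. Oasl2 rose by 2.59 ± 0.41 and Oas1a by 2.33 ± 0.40 in KO-labelled mice, and by 2.45 ± 0.48 and 2.37 ± 0.47 in WT-labelled mice. Oas1a has close neighbours of nearly the same sequence, as have Oasl2, Ifit3 and the Gbp genes, so that reads could be divided between copies.

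Trim30a, a ubiquitin ligase known for holding back NF-kappaB signalling in mouse macrophages, had 41.7, 82.3, 54.0 and 53.5 CPM in KO-labelled UUO kidneys, against 7.67, 8.46, 10.6 and 9.33 CPM in KO-labelled sham kidneys. In WT-labelled mice it had 41.4, 27.5 and 41.9 CPM in UUO, against 17.9, 8.59 and 11.1 CPM in sham kidneys. The UUO libraries stood above their shams under both labels, with log2 fold changes of 2.91 ± 0.27 (adjusted p = 1.67e-06) in KO-labelled and 1.70 ± 0.30 (adjusted p = 0.000551) in WT-labelled mice. The difference between these responses was 1.20 on the log2 scale and did not pass the adjustment (adjusted p = 0.099).

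The transcription factor Irf7, which amplifies the type I response, and Isg15 were called higher in WT-labelled mice and in both arms of the inhibitor experiment. Irf7 had 39, 27.7, 30.5 and 24.9 CPM in KO-labelled UUO kidneys, against 12.7, 14.4, 39.2 and 18.4 CPM in KO-labelled sham kidneys. It had 47.8, 50.0 and 46.2 CPM in WT-labelled UUO kidneys, against 8.32, 8.59 and 22.1 CPM in WT-labelled sham kidneys. The KO-labelled sham library with 39.2 CPM, sham KO 3, lay above every KO-labelled UUO library, and in WT-labelled mice Irf7 rose by 2.02 ± 0.43 (adjusted p = 0.00212).

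Isg15 had 86.8, 71.3, 93.6, 197, 149, 63.6 and 227 FPKM in the 7 UUO columns with UNC569, against 10.6, 19.6 and 10.5 FPKM in sham kidneys with UNC569. With DMSO it had 89.5, 89.8, 101 and 97.8 FPKM in UUO, against 22.9, 30.2 and 23.1 FPKM in sham kidneys. UUO and sham did not overlap in either arm. Of the UUO columns with UNC569, 3 stood above and 3 below all UUO columns with DMSO. The log2 fold changes were 3.03 ± 0.33 with UNC569 (adjusted p = 3.59e-07) and 1.86 ± 0.36 with DMSO (adjusted p = 0.000308).

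Bst2 rose by 2.86 ± 0.17 with UNC569 and by 1.83 ± 0.19 with DMSO. Oas2 rose by 2.75 ± 0.36 with UNC569 and by 1.39 ± 0.40 with DMSO, Oasl2 by 2.70 ± 0.22 and 1.85 ± 0.25, and Parp14, an ADP-ribosyltransferase, by 2.40 ± 0.21 and 1.83 ± 0.24. The adjusted p by limma lay under the threshold for each of these 8 values. The type I members that were not called with DMSO were Rsad2, Ifi44, Cmpk2 and Oas1a.

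**Figure D2:**
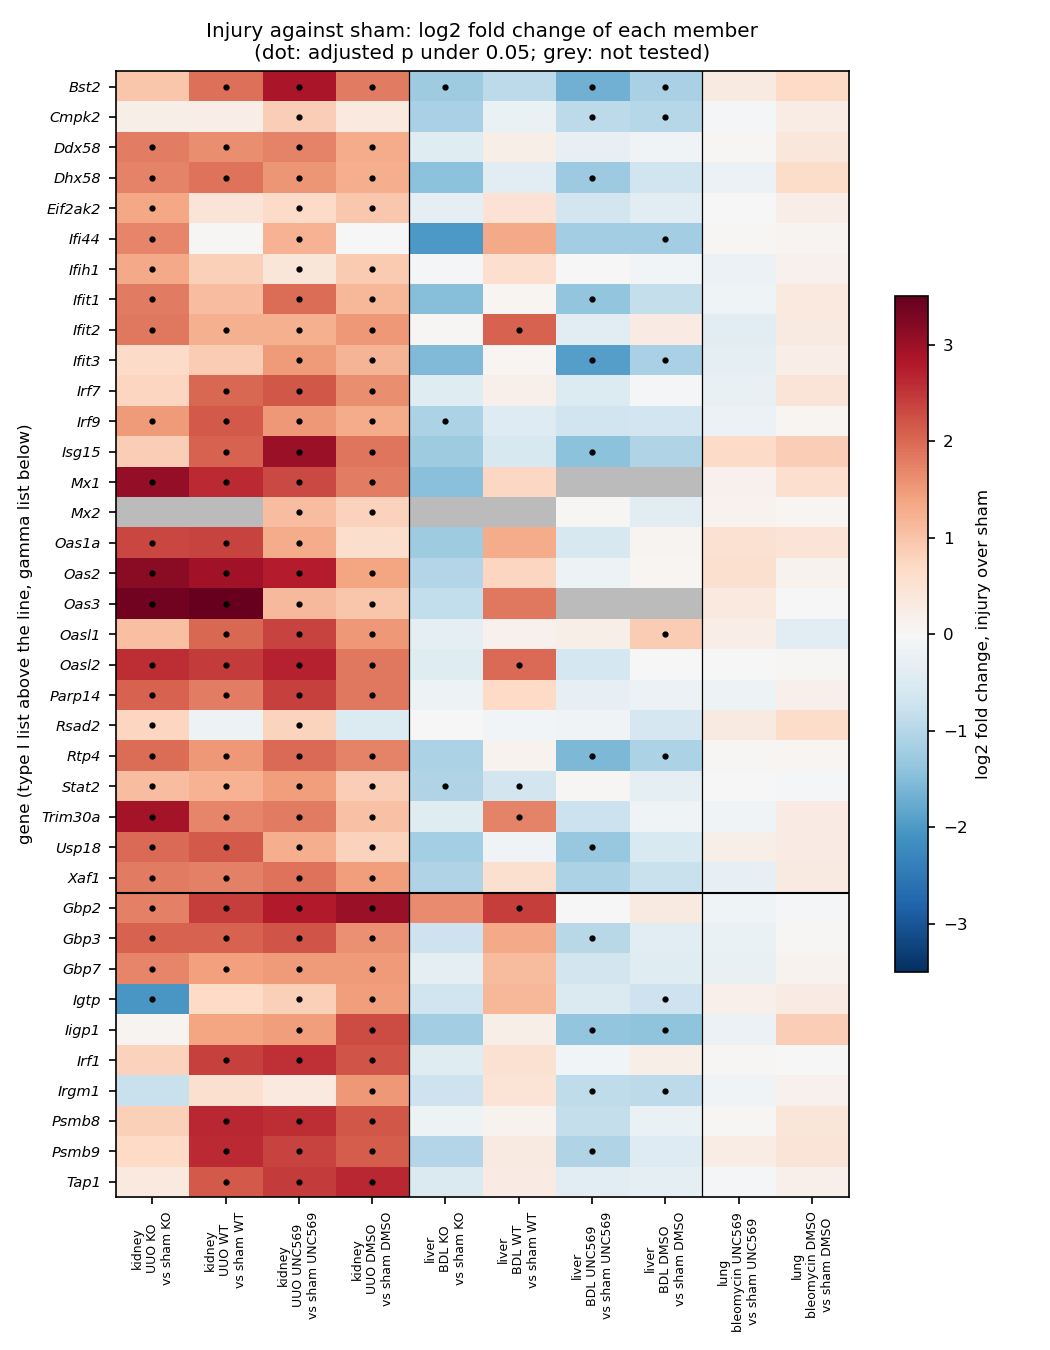
Log2 fold change of each member between injury and sham (colour; red higher, blue lower in injury) in the 10 injury comparisons, with a dot where the adjusted p was under 0.05 and grey where the gene was not tested. The kidney columns are mostly red with dots, the liver columns of the inhibitor experiment are mostly blue with 12 (UNC569) and 9 (DMSO) dots, that of Oasl1 with DMSO being red, and the lung columns have none.

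Among the gamma members Gbp2 had 57.8, 66.1, 78.0 and 51.4 CPM in KO-labelled UUO kidneys, against 10.5, 11.1, 56.9 and 9.65 CPM in KO-labelled sham kidneys. In WT-labelled mice it had 67.8, 39.2 and 58.6 CPM in UUO, against 15.3, 9.77 and 9.47 CPM in sham kidneys. The sham value of 56.9 CPM belongs to sham KO 3 again, and the other 6 sham libraries did not exceed 15.3 CPM. Gbp2 rose by 1.75 ± 0.49 (adjusted p = 0.00682) in KO-labelled and by 2.41 ± 0.59 (adjusted p = 0.00502) in WT-labelled mice.

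The immunoproteasome subunits Psmb8 and Psmb9 and the peptide transporter Tap1, which together supply peptides to MHC class I, were called in WT-labelled mice. Psmb8 had 17.2, 13.6, 13.4 and 17.9 CPM in KO-labelled UUO kidneys, against 3.18, 4.26, 27.6 and 5.60 CPM in KO-labelled sham kidneys. It had 25.6, 20.7 and 23.1 CPM in WT-labelled UUO kidneys, against 2.51, 2.70 and 6.86 CPM in WT-labelled sham kidneys. In WT-labelled mice Psmb8 rose by 2.65 ± 0.69, Psmb9 by 2.62 ± 0.73, Irf1 by 2.39 ± 0.57 and Tap1 by 2.13 ± 0.72, with adjusted p between 0.0045 and 0.029 by edgeR. Of the exon bases of Psmb8 14.7% also belong to another gene in the annotation, and the library kit does not keep strand.

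In the inhibitor experiment Gbp2 had 21.8, 25.7, 23, 29.5, 18.2, 23.9 and 32.4 FPKM in UUO with UNC569, against 2.72, 4.02 and 1.76 FPKM in sham with UNC569. With DMSO Gbp2 had 19.996, 19, 42.6 and 52.5 FPKM in UUO, against 3.03, 3.78 and 2.10 FPKM in sham. Every UUO column lay above every sham column, and Gbp2 had the highest fold change of the gamma list in both arms, 2.78 ± 0.28 with UNC569 and 3.01 ± 0.31 with DMSO. Tap1 rose by 2.45 ± 0.25 with UNC569 and 2.63 ± 0.27 with DMSO, Irf1 by 2.54 ± 0.26 and 2.20 ± 0.28, and Psmb8 by 2.57 ± 0.28 and 2.17 ± 0.31, each with an adjusted p under the threshold by limma. Iigp1 rose by 1.46 ± 0.35 with UNC569 and 2.27 ± 0.39 with DMSO.

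In these whole tissues a higher level cannot be assigned to a cell type, and fewer cells of a type and less RNA per cell cannot be told apart. The summed level of 12 macrophage markers was 1936 to 3281 CPM in KO-labelled UUO kidneys against 118 to 234 CPM in KO-labelled shams, and 1546 to 2784 CPM in WT-labelled UUO kidneys against 130 to 235 CPM in WT-labelled shams. It was 1836 to 2784 FPKM in UUO with UNC569 against 73.9 to 142 FPKM in sham with UNC569, and 2484 to 3564 FPKM in UUO with DMSO against 181 to 221 FPKM in sham with DMSO. The 12 T and NK cell markers summed to 37.2 to 51.6 CPM in KO-labelled UUO kidneys against 5.71 to 7.81 CPM in KO-labelled shams, and 25.5 to 47.3 CPM in WT-labelled UUO kidneys against 3.03 to 9.38 CPM in WT-labelled shams. Proximal tubule sums were 1332 to 7151 CPM in KO-labelled UUO kidneys against 40893 to 51555 CPM in KO-labelled shams. Siglech, a marker of the plasmacytoid dendritic cells that make type I interferon in quantity, had 1.31 to 2.48 CPM in KO-labelled UUO kidneys against 0.326 to 0.795 CPM in KO-labelled shams, and rose (log2 fold change 2.05, adjusted p = 0.00206 by edgeR). Of the 6 plasmacytoid markers 3 rose and 2 fell in KO-labelled mice, and 2 rose and 2 fell in WT-labelled mice. Their sum was 43.2 to 209 CPM in KO-labelled UUO kidneys against 2147 to 3308 CPM in KO-labelled shams, and 66.2 to 432 CPM in WT-labelled UUO kidneys against 1551 to 2555 CPM in WT-labelled shams, and most of it in the shams was Klk1, a kallikrein that the kidney tubule also makes. The part of these cells in the members' levels was not tested.

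A single library set the gamma count of the KO-labelled kidneys. In sham KO 3 all 10 gamma members stood above the other 3 KO-labelled sham kidneys, and 23 of 26 type I members did so. The median ratio to the mean of the others was 6.73 over the gamma list and 2.09 over the type I list. The share of all genes highest in sham KO 3 is not given here. Igtp, an immunity-related GTPase, had 370 CPM in sham KO 3 against 15.5 to 25.6 CPM in the others, a ratio of 17.8. Irgm1 had 475 CPM against 47.6 to 71.1 CPM, Iigp1 214 CPM against 11.0 to 19.1 CPM, and Tap1 141 CPM against 15.3 to 17.9 CPM.

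The gamma-induced chemokine Cxcl9 had 3.58 CPM in sham KO 3 against 2.18 to 3.18 CPM in the other KO-labelled shams, and Ifng itself 0.239 CPM against 0 to 0.218 CPM. The T and NK cell sum was 6.36 CPM, against 5.71 to 7.81 CPM, and the macrophage sum 227 CPM, against 118 to 234 CPM, so that neither stood outside the range of the other shams.

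Igtp was called lower in KO-labelled UUO than in KO-labelled sham kidneys, by -2.03 ± 0.79 on the log2 scale (adjusted p = 0.0382), with 22.1, 24, 22.9 and 21.8 CPM in UUO. Without sham KO 3 its fold change was 0.23, of the opposite sign. Without that library 23 of 26 type I and 9 of 10 gamma members were called higher in KO-labelled UUO kidneys and none lower, and the gamma median was 1.92. In WT-labelled mice 21 type I and 9 gamma members were then called, the spread being estimated without sham KO 3 as well.

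**Figure D3:**
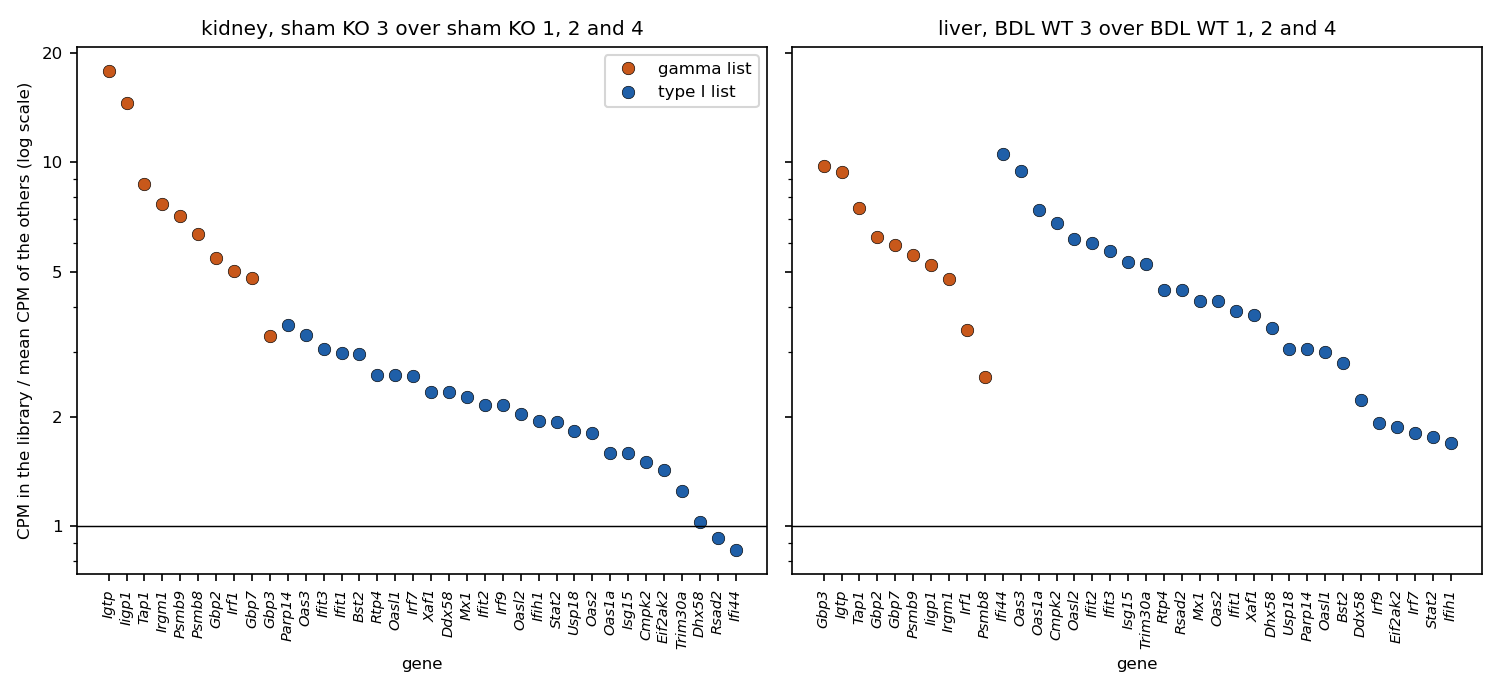
Ratio of each member's CPM in sham KO 3 kidney (left) and BDL WT 3 liver (right) to the mean of the other 3 libraries of the group, on a log scale, with the gamma list in orange and the type I list in blue. In the left panel the gamma members reach up to 17.8 and the type I members up to 3.58; in the right panel they reach up to 9.75 and 10.5.

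Most genes of the pathway around the members were also higher in obstructed kidney, by lists chosen with earlier results of these data known. Of 9 genes for receptor chains and kinases, 8 rose in KO-labelled mice, 7 in WT-labelled mice, 7 with UNC569 and 9 with DMSO, and none fell. Of all genes tested 34.7%, 23.3%, 27.5% and 29.7% were higher in the same order, and 24.4%, 16%, 34.5% and 25.8% were lower. Ifngr1, the ligand-binding chain for interferon gamma, rose by 2.20 in KO-labelled mice, 2.21 in WT-labelled mice, 1.62 with UNC569 and 1.41 with DMSO, and its partner Ifngr2 by 2.10, 1.91, 1.67 and 2.32. None of 7 interferon genes passed the filter on low values in any tissue. Ifna1, Ifna4 and Ifnb1 reached at most 0.0889, 0.133 and 0.501 CPM or FPKM in any library, and Ifng at most 1.21.

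Of the sensors and adaptors 10 of 14 rose and 2 fell in KO-labelled mice, 9 of 14 rose in WT-labelled mice, and 10 of 13 rose in each arm of the inhibitor experiment, where 1 fell with UNC569. The DNA-sensing adaptor Tmem173 (STING) led this list, with log2 fold changes of 4.15 in KO-labelled mice, 4.24 in WT-labelled mice, 3.22 with UNC569 and 2.66 with DMSO. Of 7 negative regulators tested, 5 rose in KO-labelled mice, 4 in WT-labelled mice, 5 with UNC569, where 1 fell, and 7 with DMSO. The counts of both lists stand beside the shares of all genes given above for the receptor list. Socs3, which blocks cytokine receptor kinases and answers to IL-6 as well, rose by 4.29 in KO-labelled mice, 4.24 in WT-labelled mice, 4.88 with UNC569 and 4.40 with DMSO.

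Most targets outside the membership rose too, apart from the gamma targets in KO-labelled mice. Of 22 other type I targets 17 rose in KO-labelled mice, 16 in WT-labelled mice, 20 with UNC569, where 1 fell, and 20 with DMSO. Ifi204, a DNA sensor, rose by 3.83 in KO-labelled mice, and Ifitm3, which blocks virus entry, by 2.62 with UNC569. Of the other gamma targets 8 of 19 rose in KO-labelled mice, 11 of 19 in WT-labelled mice, 17 of 17 with UNC569 and 16 of 17 with DMSO, beside the 34.7%, 23.3%, 27.5% and 29.7% of all genes that were higher in these 4 comparisons. Without sham KO 3, 19 of 19 other gamma targets were called in KO-labelled mice, beside 28% of all genes higher, and 16 of 19 in WT-labelled mice, beside 20.1%. The MHC class I gene H2-K1 rose by 2.18 in WT-labelled mice, 2.16 with UNC569 and 2.42 with DMSO, and Cxcl10, a chemokine for T cells, by 3.32 in WT-labelled mice.

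Between the labels, no member was called in obstructed kidney. In KO-labelled UUO against WT-labelled UUO kidneys 0 of 36 members passed, beside 0% of all 16395 genes higher and 0% lower, and DESeq2 also called 0. Trim30a was the only member at an unadjusted p under 0.05, with a log2 fold change of 0.71 (adjusted p = 0.43 by edgeR). Of all 16395 genes 1902 had such a p, so by count the members did not stand out. The type I list had a median of 0.21 and the gamma list 0.18. Between KO-labelled and WT-labelled sham kidneys 0 members passed, beside 0.0061% of genes higher and 0% lower, and DESeq2 called 0. An unadjusted p under 0.05 by edgeR was found for 9 of 36 members and for 2575 of 16395 genes. The gamma median there was 1.46, and 0.12 without sham KO 3. The KO-labelled minus the WT-labelled response to UUO passed for 0 members by edgeR, beside 0% of genes in either direction, and for 2 by DESeq2. By edgeR 7 of 36 members had an unadjusted p under 0.05, as had 4466 of 16395 genes. Without sham WT 4, 4 members were called between the sham groups and 7 in the difference between the responses. The shares of all genes in that refit are not given here.

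Few members differed between the UNC569 and DMSO arms in kidney, and those in the sham animals. In sham kidneys with UNC569 Rsad2, Bst2 and Ifi44 were lower and Irgm1 was higher than in sham kidneys with DMSO. This is 4 of 37 members (2.7% higher and 8.11% lower), beside a background of 13.3% of 15338 genes higher and 6.05% lower (19.3% in all). By count the members did not stand out from all genes. The type I median was -0.56 and the gamma median -0.14, with 22 of 27 and 7 of 10 members below 0, beside a median over all genes of 0.07. Without sham UNC569 column 2 or without sham DMSO column 2, 2 members, Rsad2 and Bst2, were called, both lower. The shares of all genes in those refits are not given here.

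Rsad2, known as viperin, an enzyme that makes a chain-terminating nucleotide, had 5.80, 5.41 and 2.70 FPKM in sham with UNC569, against 14, 12.9 and 10.6 FPKM in sham with DMSO. Bst2 had 11.0, 12.8 and 9.17 FPKM with UNC569, against 22.8, 31.6 and 26.7 FPKM with DMSO. Ifi44, a cytoplasmic protein of the type I response, had 2.49, 2.76 and 2.32 FPKM with UNC569, against 8.10, 5.11 and 6.51 FPKM with DMSO. The groups did not overlap for any of the 3, and the log2 fold changes were -1.30 ± 0.24 for Rsad2 (adjusted p = 0.00179), -1.23 ± 0.20 for Bst2 (adjusted p = 0.00112) and -1.09 ± 0.31 for Ifi44 (adjusted p = 0.0223).

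Irgm1, a GTPase that controls autophagy and the other immunity-related GTPases, had 37.4, 39.9 and 39.6 FPKM in sham with UNC569, against 21.7, 25.2 and 24.7 FPKM in sham with DMSO. All 3 UNC569 columns were the higher, by 0.69 ± 0.23 (adjusted p = 0.0449). After median-of-ratios scaling, which moved the median over all genes from 0.07 to -0.06, 0 members were called higher and 6 lower, so that the call of Irgm1 was lost. The macrophage sum was 73.9 to 142 FPKM in sham with UNC569 against 181 to 221 FPKM in sham with DMSO, the T and NK cell sum 1.29 to 2.02 against 3.32 to 10.7 FPKM, and the proximal tubule sum 40833 to 45806 against 54586 to 60665 FPKM. The part of these differences in the members' levels was not tested.

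In obstructed kidneys no member passed the test between the arms. With UNC569 against DMSO 0 of 37 members passed, beside 0.248% of genes higher and 1.05% lower (1.3% in all). Of the members 3, Irgm1, Igtp and Iigp1 of the gamma list, had an unadjusted p under 0.05 by limma, as had 2829 of 15338 genes. All 10 gamma members lay below 0, with a median of -0.31, and 16 of 27 type I members lay above it, with a median of 0.02. Irgm1 had 43.5, 34.6, 43.1, 64.7, 45.2, 68.3 and 57.1 FPKM in UUO with UNC569, against 58.2, 57.3, 73.7 and 97.5 FPKM in UUO with DMSO. These values overlapped, and the fold change was -0.49 (adjusted p = 0.16 by limma).

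The response to UUO itself differed between the arms for the 4 members that differed in sham. The response with UNC569 minus the response with DMSO was 1.27 ± 0.30 for Rsad2 (adjusted p = 0.00856), 1.22 ± 0.39 for Ifi44 (adjusted p = 0.0367), 1.03 ± 0.26 for Bst2 (adjusted p = 0.0116) and -1.18 ± 0.29 for Irgm1 (adjusted p = 0.0109), beside 6.17% of genes higher and 13.4% lower. Of the members 8.11% were called higher and 2.7% lower, so that by count they did not stand out from all genes (19.6% called in all). This difference between the responses contains the sham values that differed above. Rsad2 had 8.09, 8.1, 8, 11.1, 6.10, 7.47 and 11.2 FPKM in UUO with UNC569 and 8.07, 6.83, 9.99 and 9.98 FPKM in UUO with DMSO. The UUO groups overlapped throughout, while with UNC569 UUO lay above sham and with DMSO below it. Bst2 had 85.7, 66.2, 88.5, 92.1, 89.1, 64.1 and 125 FPKM in UUO with UNC569 and 86.0, 101, 103 and 102 FPKM in UUO with DMSO, again overlapping.

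**Figure D4:**
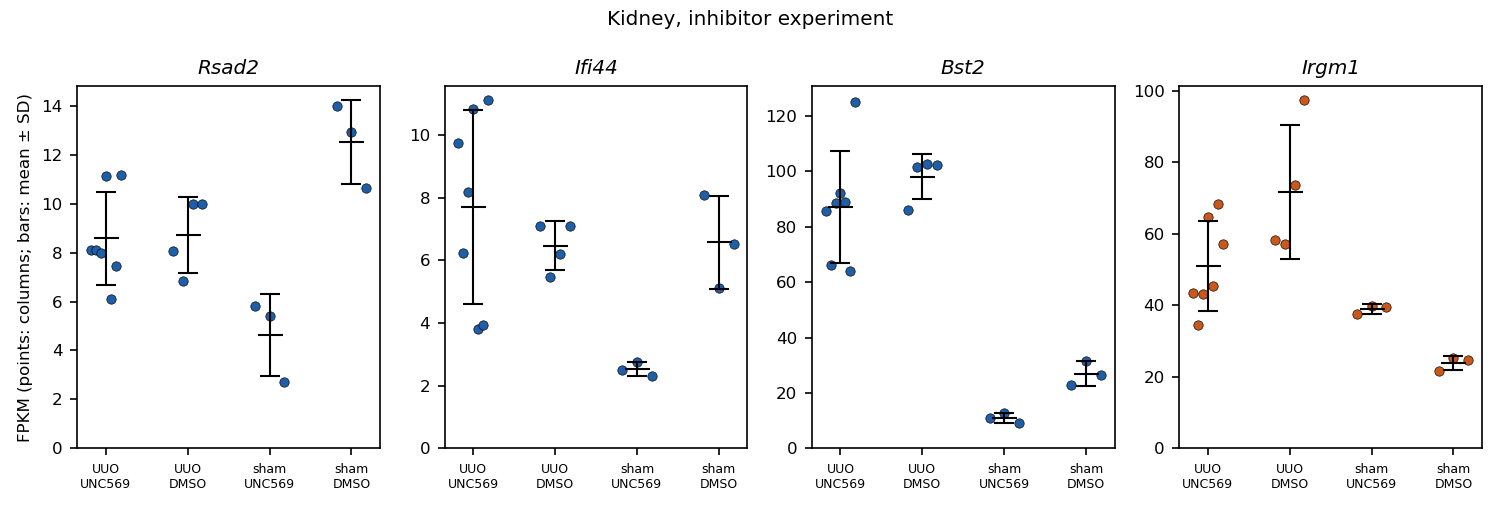
FPKM of Rsad2, Ifi44, Bst2 and Irgm1 in each kidney column of the inhibitor experiment (points) with the mean ± SD of the group, in UUO with UNC569 (n = 7), UUO with DMSO (n = 4), sham with UNC569 (n = 3) and sham with DMSO (n = 3). The UUO groups overlap for every gene, while the sham groups do not.

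Bile duct ligation gave the opposite direction in the inhibitor experiment. In ligated against sham liver, 8 of 25 type I and 4 of 10 gamma members fell with UNC569 and none rose, beside 3.66% of 12986 genes higher and 4.9% lower. With DMSO 5 of 25 type I and 3 of 10 gamma members fell and 1 type I member, Oasl1, rose, beside 5.47% higher and 7.92% lower. The type I median was -0.65 with UNC569 and -0.39 with DMSO, the gamma median -0.74 and -0.40, and the median over all genes -0.01 and -0.10. Bst2, Ifit3, Rtp4, Cmpk2, Iigp1 and Irgm1 fell in both arms.

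Ifit3 had 1.64, 2.45, 8.45 and 2.43 FPKM in ligated livers with UNC569, against 17.3, 14.2 and 13.0 FPKM in sham livers with UNC569. With DMSO it had a lowest value of 3.25, a median of 5.14 and a highest value of 8.69 FPKM in 6 ligated livers, against 11.7, 13.5 and 14.1 FPKM in sham livers. Ligated and sham livers did not overlap in either arm, and Ifit3 fell by 1.92 ± 0.36 on the log2 scale with UNC569 (adjusted p = 0.00362) and by 1.14 ± 0.34 with DMSO (adjusted p = 0.0337). Its close copy Ifit3b, outside the membership, fell by 1.49 with UNC569.

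Bst2 had 56.6, 55.2, 151 and 59.1 FPKM in ligated livers with UNC569, against 258, 218 and 226 FPKM in sham livers with UNC569. With DMSO its lowest, median and highest values in ligated livers were 60.4, 93.5 and 135 FPKM, against 210, 232 and 182 FPKM in sham livers. The groups were apart in both arms, with falls of 1.67 ± 0.32 and 1.13 ± 0.29 on the log2 scale. Rtp4, a chaperone for receptors that also restrains type I signalling, fell by 1.58 ± 0.34 with UNC569 and 1.10 ± 0.32 with DMSO. Isg15 fell by 1.44 ± 0.39 with UNC569, with 10.5, 14.1, 41.5 and 13.0 FPKM in ligated livers against 60.3, 49.7 and 36.1 FPKM in shams.

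Iigp1, the member with the highest level in liver, had 60.4, 92.6, 143 and 115 FPKM in ligated livers with UNC569, against 268, 161 and 383 FPKM in sham livers with UNC569. With DMSO its lowest, median and highest values were 74.7, 100.2 and 163 FPKM in ligated livers, against 209, 272 and 367 FPKM in sham livers. It fell by 1.37 ± 0.34 with UNC569 (adjusted p = 0.0199) and by 1.42 ± 0.32 with DMSO (adjusted p = 0.00768). Irgm1 fell by 0.90 ± 0.22 and 0.91 ± 0.20 in the same order, and Igtp by 0.73 ± 0.20 with DMSO. Oasl1, which in mice holds back the translation of Irf7, rose by 0.88 ± 0.22 with DMSO, with 11.8 to 17.6 FPKM over the 6 ligated livers against 6.86, 8.91 and 7.13 FPKM in shams.

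These liver counts depend on few libraries. Without sham DMSO column 2 the DMSO arm called 1 member, without sham DMSO column 0 it called 4 and without sham DMSO column 1 it called 5, and it called 5 after median-of-ratios scaling, against 9 in the whole set. The UNC569 arm called 3 members without sham UNC569 column 0, without sham UNC569 column 2 or without BDL UNC569 column 0, 5 without BDL UNC569 column 1, 6 without sham UNC569 column 1, 7 without BDL UNC569 column 3 and 17 without BDL UNC569 column 2, against 12 in the whole set. For these refits of both arms the shares of all genes called are not given here. BDL UNC569 column 2, the highest of its group for Ifit3, Bst2 and Isg15, had a neutrophil sum of 656 FPKM against 76.4 to 151 FPKM in the other columns and a macrophage sum of 1272 FPKM against 421 to 463 FPKM, and the part of these cells was not tested. The macrophage sums were 421 to 1272 FPKM in ligated livers with UNC569 against 252 to 623 FPKM in shams, and 729 to 1980 FPKM in ligated livers with DMSO against 211 to 492 FPKM in shams.

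No member passed the test between UNC569 and DMSO within ligated or within sham liver. In ligated liver 0 of 35 passed, beside 0.123% of genes higher and 0.193% lower. There 6 members had an unadjusted p under 0.05 by limma, as had 1454 of 12986 genes. Of the 35 members, 30 lay below 0, with medians of -0.31 for the type I and -0.26 for the gamma list beside 0.09 for all genes. Without BDL UNC569 column 2, 2 members were called lower, and the share of all genes in that refit is not given here. In sham liver 0 passed, beside 0% of genes in either direction, with 0 at an unadjusted p under 0.05, and for the difference between the responses 0 passed, beside 0% of genes, also with 0 at an unadjusted p under 0.05.

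In the knockout experiment the ligated livers gave a mixed picture. In KO-labelled mice 3 of 26 type I members fell, Stat2, Irf9 and Bst2, and no gamma member was called, beside 14% of 13492 genes higher and 11.2% lower. In WT-labelled mice Ifit2, Oasl2 and Trim30a of the type I list and Gbp2 of the gamma list rose and Stat2 fell, beside 16.3% higher and 12.8% lower. The type I median was -1.04 in KO-labelled and 0.20 in WT-labelled mice, and the gamma median -0.60 and 0.52.

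Stat2 had 33.3, 40.6, 39.6 and 49.1 CPM in KO-labelled ligated livers, against 79.5, 82.6, 83.1 and 91.4 CPM in KO-labelled shams. In WT-labelled mice it had 40.2, 49.4, 91.9 and 67.1 CPM in ligated livers, against 74.3, 129, 102 and 91.1 CPM in shams. The KO-labelled groups were apart, while in WT-labelled mice the library BDL WT 3, with 91.9 CPM, lay among the shams, and Stat2 fell by 1.05 ± 0.23 (adjusted p = 0.0056) in KO-labelled and by 0.65 ± 0.23 (adjusted p = 0.0437) in WT-labelled mice. Irf9, its partner, fell by 1.10 ± 0.31 and Bst2 by 1.24 ± 0.35 in KO-labelled mice.

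BDL WT 3 stood above the other 3 WT-labelled ligated livers in all 36 members. The share of all genes highest in this library is not given here, so how particular this is to the members is not known. The median ratio to the mean of the others was 4.03 for the type I list and 5.75 for the gamma list, and Ifi44 was farthest, at 10.5. Iigp1 had 930 CPM in that library against 150 to 216 CPM in the others, and Trim30a 53.4 CPM against 6.14 to 14.2 CPM. Ifit2 had 36.8 CPM against 4.85 to 8.39 CPM.

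BDL WT 3 also had a T and NK cell sum outside its group, 16.8 CPM against 1.78 to 3.79 CPM. Its macrophage sum was 2064 CPM against 1018 to 1218 CPM, and Cxcl9 had 71.0 CPM against 1.23 to 5.42 CPM. Its hepatocyte sum was 49617 CPM against 74494 to 85908 CPM. The part of the other cell types in the members' levels was not tested.

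Without BDL WT 3 the WT-labelled ligated livers gave 4 type I members and 1 gamma member lower and 1 type I member higher. Isg15 was then at -1.61, Cmpk2, a mitochondrial nucleotide kinase, at -1.50, Bst2 at -1.43, Tap1 at -1.08 and Stat2 at -0.88, and Oasl2 at 0.80. The medians were -0.30 for the type I and -0.39 for the gamma list. In KO-labelled mice 10 type I members and 1 gamma member were called lower and 1 gamma member higher in the fit without BDL WT 3, which shares its estimate of spread over all 4 groups. In the whole set the KO-labelled count was 3, and it was 1 without BDL KO 3 and 5 without BDL KO 2. The WT-labelled count was 5 in the whole set, and it was 2 without sham WT 1 and 1 without sham WT 3 or without sham WT 4. The shares of all genes called in these refits, including the one without BDL WT 3, are not given here.

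Between KO-labelled and WT-labelled ligated livers 5 of 26 type I members and 0 of 10 gamma members were lower, beside 2.67% of all genes higher and 1.72% lower (4.39% in all). All 36 fold changes lay below 0, with medians of -1.47 and -1.46. The 5 were Mx1, Oas1a, Trim30a, Ifit1 and Oasl2, with adjusted p between 0.0387 and 0.0448 by edgeR. Without BDL WT 3 no member was called by edgeR, 4 of 36 lay above 0 and the medians were -0.61 and -0.35.

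Mx1 had 0.494, 1.10, 0.159 and 0.746 CPM in KO-labelled ligated livers, against 1.29, 2.60, 9.98 and 3.30 CPM in WT-labelled ones. Trim30a had 1.54, 5.03, 4.52 and 5.05 CPM in KO-labelled livers, against 6.14, 14.2, 53.4 and 10.1 CPM in WT-labelled ones. The labels did not overlap for either gene, and the log2 fold changes were -2.77 ± 0.63 for Mx1 and -2.39 ± 0.56 for Trim30a. Oas1a had 0.432, 2.15, 0.397 and 1.32 CPM in KO-labelled livers, against 1.78, 3.14, 18.9 and 2.73 CPM in WT-labelled ones, where 2.15 overlaps 1.78, and its fold change was -2.63 ± 0.69.

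Ifit1 had 0.617, 3.5, 3.17 and 3.04 CPM in KO-labelled ligated livers, against 4.42, 11.5, 27.6 and 5.20 CPM in WT-labelled ones, a fold change of -2.26 ± 0.59. Oasl2 had 6.54, 4.05, 4.04 and 3.10 CPM in KO-labelled livers, against 6.70, 9.58, 47.7 and 6.92 CPM in WT-labelled ones, a fold change of -2.02 ± 0.53. The KO-labelled and WT-labelled values of both genes did not overlap, although for Oasl2 the nearest were 6.54 and 6.70 CPM. The highest value of each of the 5 genes was in BDL WT 3.

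The 5 calls were lost in 13 of 16 omissions of a single library, and omitting BDL WT 1, BDL KO 2 or BDL KO 4 gave 21, 15 and 8 calls. DESeq2 called 18 members lower. The shares of all genes given above belong to the edgeR fit of all libraries. Whether these other counts exceed the share in their own refit is not shown. Hepatocyte sums were 108348 to 137513 CPM in KO-labelled and 49617 to 85908 CPM in WT-labelled ligated livers, and macrophage sums 269 to 4871 CPM and 1018 to 2064 CPM. The part of this difference in tissue make-up was not tested. The highest macrophage sum, in BDL KO 3, went with 0.159 CPM of Mx1 and 0.397 CPM of Oas1a, the lowest values of these genes in the group, and with 28.9 CPM of Gbp2, the highest.

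Of the other genes of the pathway, 3 of 22 other type I targets and 3 of 19 other gamma targets were lower in KO-labelled than in WT-labelled ligated livers and none higher. Of all genes 1.72% were lower and 2.67% higher. The lower targets included Slfn5 (-1.71), Slfn8 (-2.57), B2m, the light chain of MHC class I (-0.95), and the GTPase Tgtp1 (-4.73). Calls of these lists without BDL WT 3, where no member was called, are not given here. Of 14 sensors and adaptors 1 was lower, Tlr3, which senses double-stranded RNA (-1.49), and of 7 negative regulators 1, Samhd1, which depletes nucleotides (-1.55). None of the 9 receptor and kinase genes was called by edgeR, and 3 had an unadjusted p under 0.05, as had 3601 of 13492 genes.

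KO-labelled and WT-labelled sham livers differed in 0 of 36 members by edgeR and by DESeq2, beside 0% of genes in either direction, and the medians were -0.25 and -0.10. For the KO-labelled minus the WT-labelled response to ligation 0 passed by either tool, beside 0% of genes in either direction. By edgeR 9 of 36 members had an unadjusted p under 0.05, as had 1952 of 13492 genes.

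**Figure D5:**
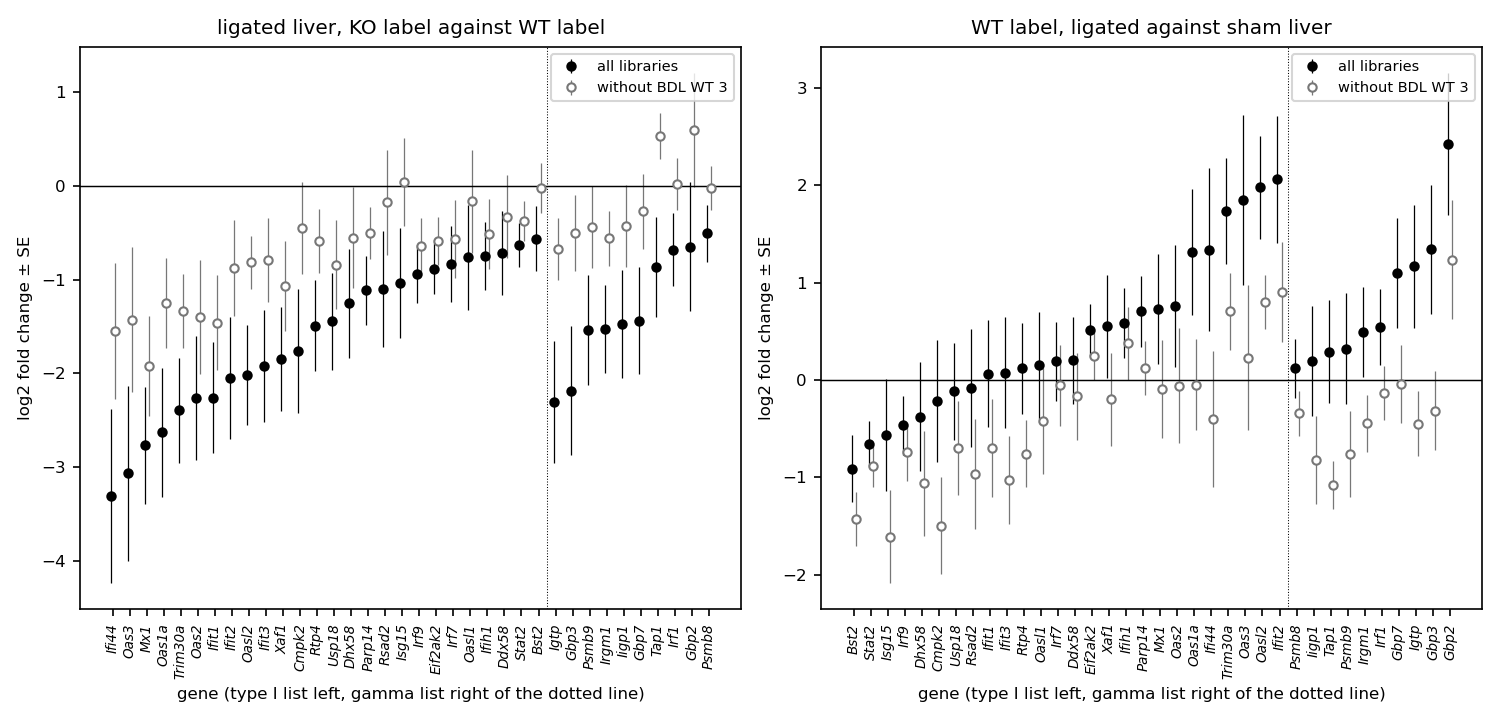
Log2 fold change ± SE of each member in liver for KO-labelled against WT-labelled ligated livers (left) and for ligated against sham livers of WT-labelled mice (right), with all libraries (black) and without BDL WT 3 (open). In the left panel all 36 black points lie below 0 and 4 open points above it; in the right panel the gamma median is 0.52 with all libraries and -0.39 without BDL WT 3.

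In lung no member passed in any of the 5 comparisons. Bleomycin with UNC569 against sham with UNC569 gave 0 of 37, beside 0.0188% of 15935 genes higher and 0.00628% lower. There 1 member had an unadjusted p under 0.05 by limma, as had 1687 of all genes. Bleomycin against sham with DMSO gave 0 of 37, beside 0.0251% higher and 0.0439% lower. An unadjusted p under 0.05 by limma was found for 10 of 37 members, all above 0, and for 3122 of 15935 genes in either direction. UNC569 against DMSO gave 0 of 37 after bleomycin and 0 of 37 in sham, with 1 and 2 at an unadjusted p under 0.05, and the difference between the responses gave 0 with 4, beside 0% of genes in either direction in each of the 3. Of all genes 843, 1206 and 1893 had such an unadjusted p, in the same order.

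Isg15 had a lowest value of 70.7, a median of 88.9 and a highest of 130 FPKM in 6 lungs after bleomycin with UNC569, against 71.9, 47.7 and 63.2 FPKM in sham lungs with UNC569. With DMSO it had a lowest value of 49.9, a median of 87.4 and a highest of 134 FPKM after bleomycin, against 38.8, 37.9 and 74.7 FPKM in sham lungs. The groups overlapped in both arms, with fold changes of 0.66 (adjusted p = 0.45 by limma) and 0.86 (adjusted p = 0.14). The sham DMSO column 2, with 74.7 FPKM, set the overlap with DMSO.

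That column was the highest of its group for the gamma list, and Gbp2 had 36.2 FPKM in it against 17.1 and 16.1 FPKM in the other sham DMSO lungs. Without it 5 type I members, among them Isg15 at 1.17 and Bst2 at 0.99, and 3 gamma members, among them Iigp1 at 1.29, were called higher after bleomycin with DMSO. The share of all genes higher given above, 0.0251%, belongs to the fit with every column. The share without sham DMSO column 2 is not given here. The sham DMSO columns 0 and 1, the remaining pair, were closer to each other than any of the other pairs of columns within a lung group, with a robust SD of their log2 FPKM ratios of 0.200 against a median of 0.374 over the 36 pairs. Without sham DMSO column 2, 1 gamma member was also called higher between sham lungs and 2 type I members lower in the difference between the responses. Counting columns 0 and 1 as 1 library, an alternative chosen after the data were seen, gave 0 members in each of the 5 comparisons.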

How the data were processed

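RNA was sequenced from kidney, liver and lung with a TruSeq RNA v2 kit, which keeps no strand, per the labels' protocols. The count values were deposited as the authors' STAR gene counts per library, of which the unstranded column was read. The FPKM values were deposited by the authors as tables scaled per tissue, and how they were counted is not given in the sources used here. The submitters' processing notes name FastQC, Trim Galore, STAR and edgeR and the builds hg38 and mm10.

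The members and lists were chosen with earlier results of these data known. From the list of receptors and kinases 1 gene was left out, and it is not reported here. Counts were fitted with edgeR 4.0.16 (quasi-likelihood test, TMM, its own filter on low counts, 1 fit for each tissue over all 4 groups) in R 4.3.3. FPKM tables were fitted with limma 3.58.1 (trend) on log2(FPKM + 1), for genes at 1 FPKM or more in 3 or more libraries, so that the fold changes of low genes are understated. P-values were adjusted by Benjamini-Hochberg over all genes of a fit, two-sided, and calls are at 0.05. Of the 25 comparisons, only those between injured groups (KO label against WT label, UNC569 against DMSO) were tested on simulated data. The 2 kidney libraries sham WT 1 and UUO WT 1 were left out. Replicates are biological per the labels, but no label ties them to separate animals, so p-values measure the spread between samples. CPM was computed from the counts over reads in genes after scaling by the TMM factors. FPKM columns carry a group and no sample number, and 3 of 54 samples have no column here. Genes named are the called members with the largest changes in each list, those that show a role, and up to 2 genes of each other list. Alternatives were DESeq2 1.42.0, other scalings, filters, a pseudocount of 0.1, a replicate block and leaving out libraries. Reads of close copies (Ifit3, the Oas1 cluster, the Gbp genes, Trim30a) may be divided between them.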

Additional observations from a re-analysis of the deposited data

Results flagged for a closer look

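Among 132 groups of 4 to 10 samples, 25 held a value far from the rest by Dixon's criterion. For a single group chosen beforehand chance gives about 1 in 20. The groups tested here were the lists and chosen genes, which share libraries, so that rate is no yardstick for the 25. In kidney sham KO 3 the far values were the mean gamma level of 6.55 on the log2(CPM + 1) scale and the values of Igtp (370 CPM), Irgm1 (475 CPM), Iigp1 (214 CPM), Tap1 (141 CPM), Psmb8 (27.6 CPM), Gbp2 (56.9 CPM) and Xaf1 (13.9 CPM). In liver BDL WT 3 they were Oas1a (18.9 CPM), Oasl2 (47.7 CPM), Trim30a (53.4 CPM), Ifit2 (36.8 CPM), Gbp2 (43.9 CPM) and Bst2 (182 CPM). BDL KO 1 was low in Ifit1 (0.617 CPM) and Trim30a (1.54 CPM), and BDL KO 3 was high in Gbp2 (28.9 CPM).

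In the inhibitor experiment liver BDL UNC569 column 2 was high in the mean type I level (2.65 on the log2(FPKM + 1) scale), Ifit3 (8.45 FPKM), Bst2 (151 FPKM), Isg15 (41.5 FPKM) and Irgm1 (46.2 FPKM). In kidney UUO DMSO column 0 was low in Bst2 (86.0 FPKM) and UUO UNC569 column 6 high in Psmb8 (51.0 FPKM). In lung bleomycin UNC569 column 1 was high in Ifit1 (21.6 FPKM).

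The response to UUO with UNC569 minus that with DMSO passed the limma interaction test for Rsad2 (1.27), Ifi44 (1.22), Bst2 (1.03) and Irgm1 (-1.18). Of the members 8.11% were called higher and 2.7% lower, beside 6.17% and 13.4% of all genes. These genes also differed between the sham groups of the arms, while no member was called between the UUO groups.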

How the results depend on the processing

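Of the fold changes of called members recomputed under an alternative, 2899 of 3225 kept their direction and their call, 323 kept their direction only and 3 changed sign. These 3 were Usp18 (-0.20) and Bst2 (-0.42) in WT-labelled UUO against sham kidneys with UUO WT 1 and sham WT 1 kept, and Igtp (0.23) in KO-labelled UUO against sham kidneys without sham KO 3, against a range of -2.50 to 0.23 without single libraries. For the counts of members called, DESeq2 gave 2 for the kidney difference between labels' responses, 7 for KO-labelled ligated against sham liver and 18 for KO-labelled against WT-labelled ligated liver. Leaving out all libraries noted with a bad fastq file left 1 UUO and 1 sham library with the WT label in kidney, assumed to vary like the KO-labelled groups, and gave 11 there, 0 in KO-labelled ligated against sham liver, 1 in WT-labelled ligated against sham liver and 0 in KO-labelled against WT-labelled ligated liver. Keeping the 2 kidney libraries gave 12 in WT-labelled kidney. Leaving out BDL KO 1 and BDL KO 3 gave 1 in KO-labelled ligated against sham liver and 0 against WT-labelled ligated liver. Median-of-ratios scaling gave 5 in ligated against sham liver with DMSO. Without single libraries the counts ran over 22 to 32 (KO-labelled) and 22 to 30 (WT-labelled) in UUO kidney, 0 to 4 between sham kidneys, 0 to 7 for the difference between labels' responses in kidney, 1 to 12 (KO-labelled) and 1 to 6 (WT-labelled) in ligated liver and 0 to 21 between labels there. In the inhibitor experiment they ran over 34 to 36 (UNC569) and 30 to 34 (DMSO) in UUO kidney, 2 to 5 between sham kidneys, 3 to 6 for the difference between responses, 3 to 17 (UNC569) and 1 to 10 (DMSO) in ligated liver and 0 to 2 between arms there. In lung they ran over 0 to 8 after bleomycin with DMSO, 0 to 1 between shams and 0 to 2 for the difference between responses, each upper value without sham DMSO column 2. By the median, same-numbered samples did not deviate together (median correlations of deviations -0.03 in kidney and -0.003 in liver). These correlations cannot settle whether the numbers pair samples by design. With the replicate block the counts were 23 and 27 in KO-labelled and WT-labelled UUO kidney. In liver they were 5 in KO-labelled ligated liver, 5 in WT-labelled ligated liver and 1 between labels in ligated liver. FPKM columns carry no sample number, so no paired analysis was possible there. The share of all genes called under each alternative is not given beside the counts of members above. The causes were not tested.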
